A study of Mus musculus with 18 samples.

Results

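Genes that mark B cells, and genes that carry the signal of the B cell receptor, were followed in mouse colon by RNA sequencing. They are 32 genes taken by name from a deposited table of 36451, and were chosen with earlier results of these data known. The series asked whether Akkermansia muciniphila, a gut bacterium that feeds on mucus, affects colitis through ferroptosis, an iron-dependent form of cell death. The AKK group, 6 libraries, was gavaged weekly with 0.1 mL of that bacterium over 6 weeks. The Model group, 6 libraries, had 3% dextran sulfate sodium (DSS), a polymer toxic to colon epithelium, in its drinking water for 1 week and was gavaged with PBS. The Control group, 6 libraries, was of male C57BL/6J mice aged 6 weeks with no stated treatment. The strain, sex and age stand in the description of the Control group only, and DSS in that of the Model group only. Whether the AKK mice also drank DSS, and whether any group received the ferroptosis agonist Erastin that the design mentions, cannot be read from the descriptions. No library number occurs in more than 1 group, so a difference between cohorts of mice cannot be told apart from the treatments.

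B cells carry on their surface an antibody, the B cell receptor, whose signal enters the cell through its partner chains Cd79a and Cd79b. Kinases of the Src family such as Lyn and Blk phosphorylate these chains, Syk binds them, and the adaptor Blnk then brings Btk and the phospholipase Plcg2 together. B cell identity is held by a small set of transcription factors, among them Ebf1 and Pax5. In the colon, B cells gather in lymphoid follicles and patches of the wall, from which antibody-secreting plasma cells spread into the mucosa, and a plasma cell no longer makes many of these B cell proteins. A piece of colon may hold many follicles or few, and in bulk tissue fewer cells of a type and less RNA per cell cannot be told apart.

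Total estimated counts ran from 60665457 to 82589848 per AKK library, from 58841661 to 79147073 per Model library and from 53873744 to 65705141 per Control library. Totals above 70000000 were found in 3 AKK, 1 Model and 0 Control libraries. Colon epithelium genes were present in every library, with the sum of 11 of them lowest in Model_1337, at 1039 FPKM (a level corrected for transcript length and sequencing depth). That library also held 1059 FPKM of the squamous keratin Krt5, against at most 0.33 FPKM in the other 17. Model_1341 took 17.0% of its counts from mitochondrial genes, against 3.93 to 8.59% in the other 17. Calls in Model against Control that changed with both of these Model libraries left out are named below.

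Of the B cell genes tested, 23 of 24 had a log2 change above 0 in Model colon against Control colon and in AKK colon against Control colon, with calls in both comparisons, and none was called between AKK and Model. A gene was tested if it reached 1 FPKM in at least 6 libraries, which 24 of the 32 did. No Control library reached 1 FPKM for Cd22, Vpreb3, Ms4a1, Fcrla, Ikzf3, Blk and Tnfrsf13c, so they passed only through AKK and Model libraries. The counts of genes called higher include them. Without the filter, 22 of the 32 were called higher in Model against Control (3.89% of all genes) and 3 in AKK against Control (0.804%). The quasi-likelihood test of edgeR was run over all 14007 genes tested, with a call at a Benjamini-Hochberg adjusted p below 0.05. In Model against Control, 19 of the 24 were called higher and 0 lower, where 12.4% of all tested genes were called higher and 7.67% lower (20.1% either way). At an unadjusted p under 0.05 the count was 22 of the 24, against 35.2% of all tested genes. The number called higher at the adjusted threshold was 7 with voom and library weights and 12 with limma on log2(FPKM + 1). It was 19 without both Model_1337 and Model_1341, and ran from 15 to 22 with 1 library left out. In AKK against Control, 7 of the 24 were called higher and 0 lower, where 3.72% of all tested genes were called higher and 2.48% lower (6.2% either way). At an unadjusted p under 0.05 the count was 17, against 25.4% of all tested genes. The number called higher in AKK against Control was 16 with voom and library weights and 3 with limma on log2(FPKM + 1). With both compared groups fitted alone it was 18 in AKK against Control and 13 in Model against Control, so the comparison with more calls differed between fits, and the difference between these counts was not tested. In AKK against Model, 0 of the 24 were called in either direction, where 0.0214% of all tested genes were called. DESeq2 also called 0 of the 24 in AKK against Model, and 0 of the 24 had an unadjusted p under 0.05 in edgeR there, against 6.72% of all tested genes. The median log2 change of the 24 was 1.9 in Model against Control, 1.30 in AKK against Control and -0.62 in AKK against Model, while that of all tested genes was -0.00038, -0.0097 and -0.023. The 2 comparisons with Control share the Control libraries, and both comparisons with AKK share the AKK libraries, so they are not independent of each other.

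**Figure D1:**
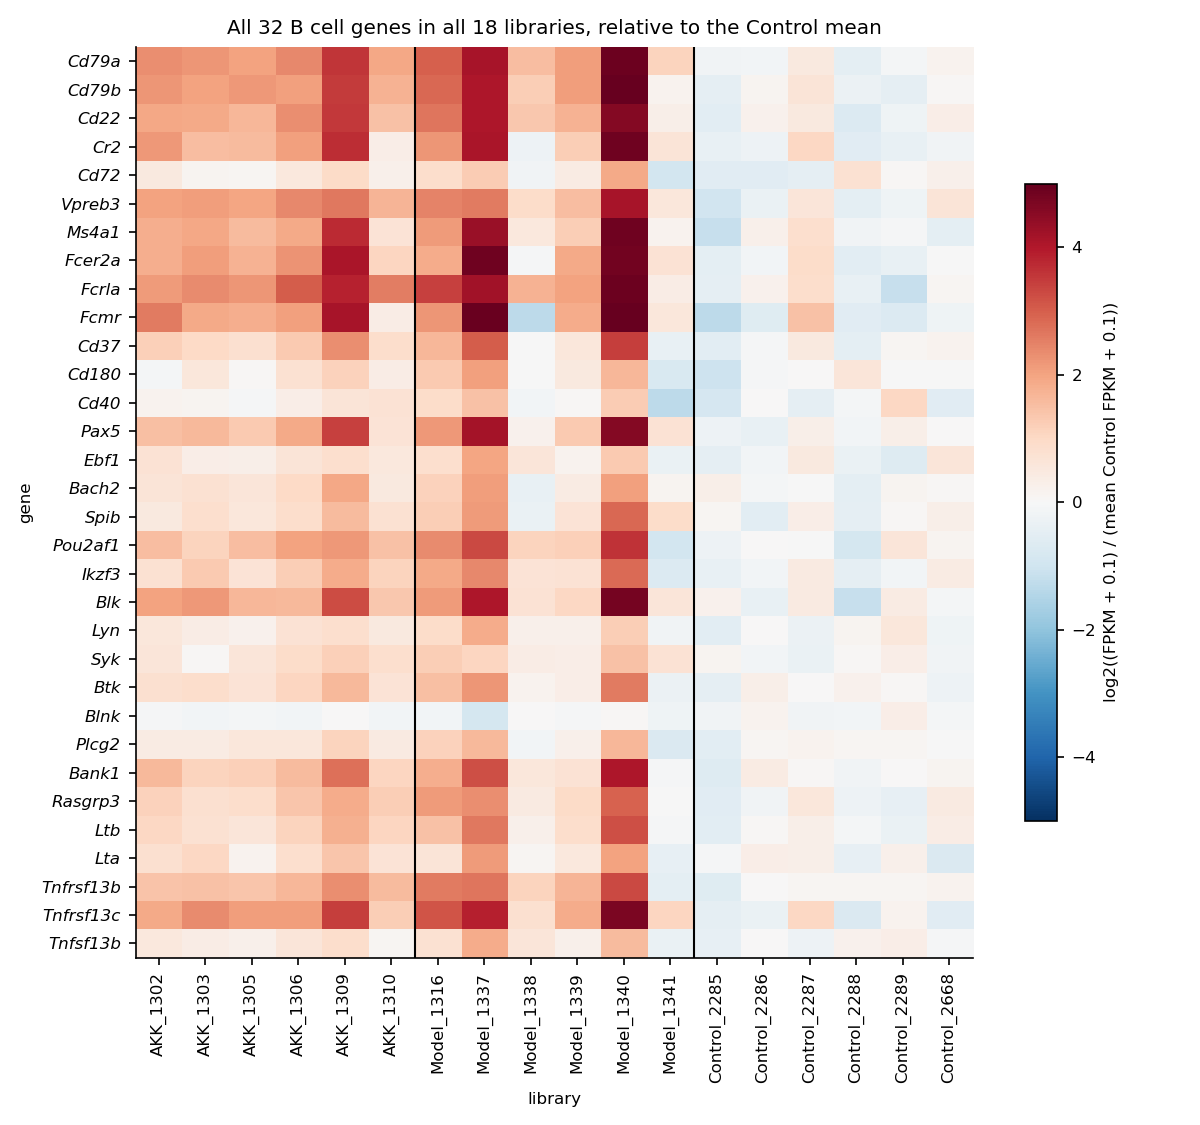
Level of all 32 B cell genes (rows, in the order of their roles) in all 18 libraries (columns: AKK, Model, Control), as log2 of (FPKM + 0.1) over the Control mean of (FPKM + 0.1); red is above and blue below the Control mean, and the colour scale ends 5 log2 units above and below. Model_1337 and Model_1340 are the deepest red columns, Model_1341 is near the Control level in most rows, and the AKK columns are more even, with AKK_1309 the reddest.

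For most of these genes the Model libraries differed more among themselves than the AKK libraries did. Over the 31 genes with no library at 0, the highest library stood a median of 12.9 times above the lowest in Model, against 2.45 times in AKK and 2.62 times in Control. Over the 4 Model libraries other than Model_1337 and Model_1341, a choice made after the values were seen, it was 8.10 times. Model_1340 was the highest Model library for 24 of the 32 genes and Model_1337 for 8, and these libraries were the top 2 for 30 genes. At the other end, Model_1341 was the lowest for 23 genes and Model_1338 for 7. Model_1341 stood at or below the highest Control library for 26 of the 32 genes and Model_1338 for 19. Among the AKK libraries AKK_1309 was the highest for 31 of the 32. The AKK mean lay below the Model mean and above the Control mean for 31 of the 32 genes, and for Blnk it lay above the Model mean and below the Control mean. The AKK median was above the Model median for 6. The share of counts from mitochondrial genes was also highest in Model_1341, and its part in the low values there was not tested.

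Vpreb3 was grouped with the genes of the receptor complex and its coreceptors. Of this group, 4 of 5 tested rose in Model against Control, and the same 4, Vpreb3 among them, rose in AKK against Control. The shares of all tested genes called higher were 12.4% and 3.72%. Cd79a (ENSMUSG00000003379, mm10 chromosome 7, 24897381 to 24902197), the Ig-alpha chain through which the receptor signals, had a lowest, median and highest level of 7.07, 9.0 and 22.5 FPKM in AKK, 3.93, 11.5 and 56.7 FPKM in Model, and 1.25, 1.64 and 2.57 FPKM in Control. Every AKK and every Model library lay above every Control library. The log2 change of Cd79a was 3.43 ± 0.56 (SE) in Model against Control (edgeR adjusted p 0.0018), 2.50 ± 0.54 in AKK against Control (0.016) and -0.93 ± 0.51 in AKK against Model (0.742). Its partner chain Cd79b (Ig-beta) had 5.87, 7.62 and 19.9 FPKM in AKK, 1.92, 10.2 and 57.4 FPKM in Model, and 1.21, 1.57 and 2.71 FPKM in Control. All AKK libraries and 5 of the 6 Model libraries lay above the Control range, and Model_1341 lay inside it. Cd79b rose by 3.40 ± 0.64 in Model (edgeR adjusted p 0.0035) and by 2.37 ± 0.61 in AKK (0.032), both log2 ± SE against Control. Both chains are needed in 1 complex, and the ratio of Cd79b to Cd79a, in FPKM, ran from 0.729 to 1.08 in AKK, from 0.490 to 1.01 in Model and from 0.728 to 1.16 in Control, with the lowest ratio in Model_1341.

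Cd22, an inhibitory sialic acid-binding coreceptor, had 1.36, 1.87 and 5.99 FPKM in AKK, 0.55, 2.44 and 12.7 FPKM in Model, and 0.226, 0.432 and 0.627 FPKM in Control. It rose by 3.37 ± 0.65 in Model and by 2.47 ± 0.63 in AKK (log2 ± SE against Control, edgeR adjusted p 0.0038 and 0.030). Vpreb3, a relative of the surrogate light chain that is made in B cells, had 1.70, 2.24 and 3.35 FPKM in AKK, 0.739, 2.30 and 9.54 FPKM in Model, and 0.185, 0.369 and 0.786 FPKM in Control. Its change was 2.69 ± 0.53 in Model and 2.26 ± 0.52 in AKK (log2 ± SE against Control, edgeR adjusted p 0.0042 and 0.021). For both genes every AKK library, and every Model library but Model_1341, lay above the Control range. Cd72, a coreceptor that also inhibits, was not called in any comparison. Its levels of 3.93, 4.79 and 7.24 FPKM in AKK, 1.88, 5.84 and 14.0 FPKM in Model and 2.41, 3.22 and 6.32 FPKM in Control overlapped in all 3 groups (log2 change 0.79 ± 0.36 in Model against Control, edgeR adjusted p 0.130, and 0.0474 without Model_1341, where it was called). Cr2, the complement receptor on mature B cells and follicular dendritic cells, was below the filter, with 0.116, 0.507 and 2.09 FPKM in AKK, 0.0425, 0.491 and 4.88 FPKM in Model, and 0.0158, 0.0373 and 0.247 FPKM in Control. Without Model_1340 the log2 change in Model against Control was 2.75 for Cd79a, 2.59 for Cd79b, 2.71 for Cd22 and 1.93 for Vpreb3, and all of these stayed called (edgeR adjusted p up to 0.0094).

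**Figure D2:**
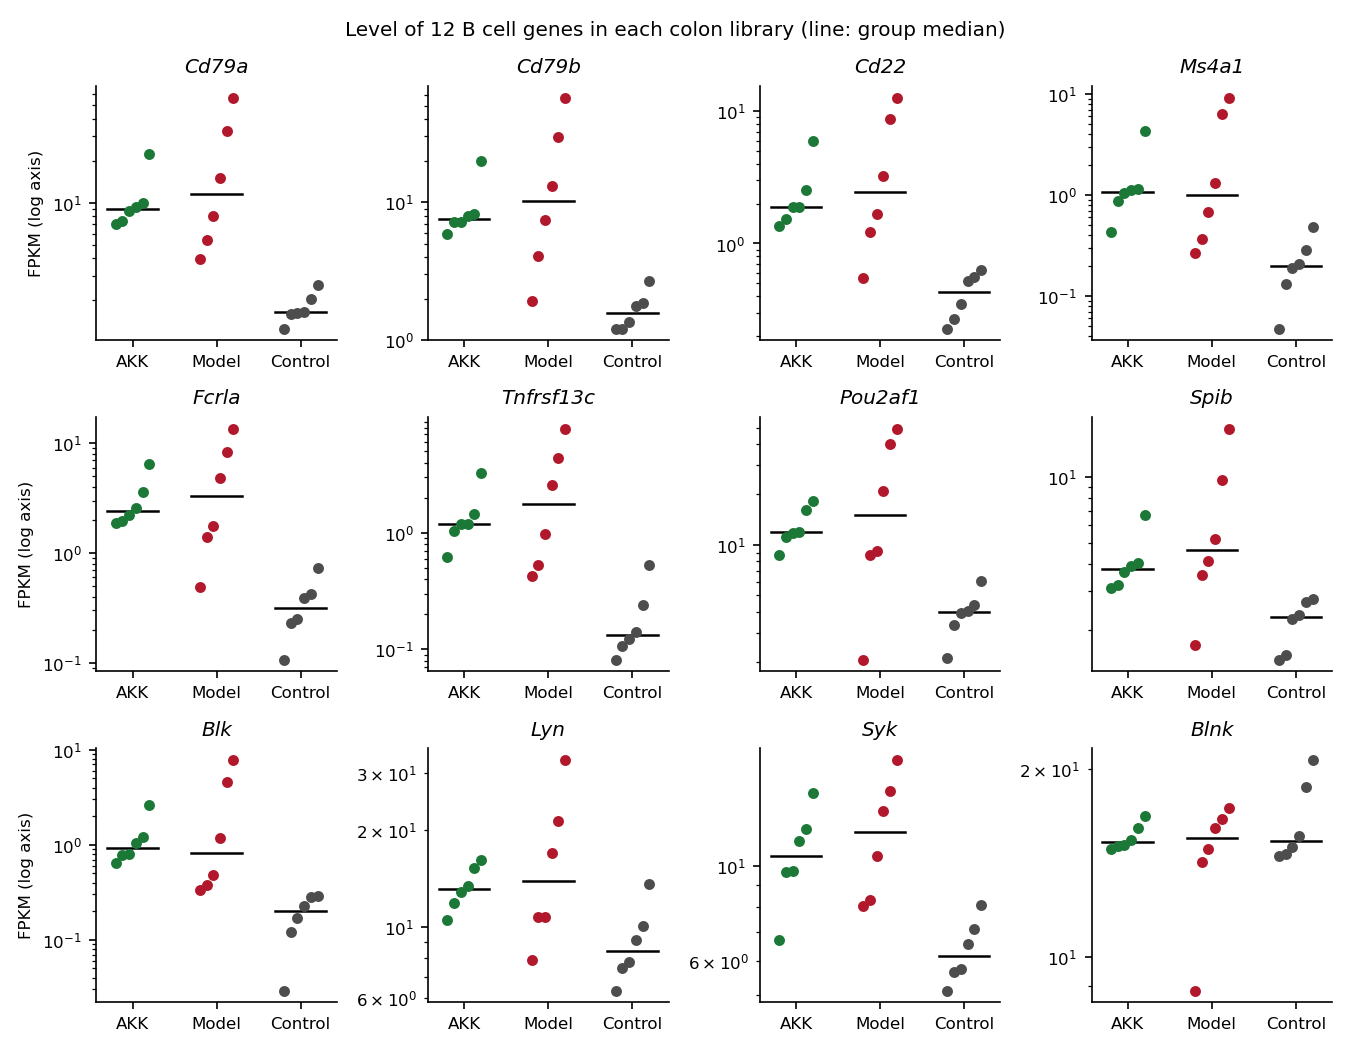
FPKM (log axis, scaled for each gene) of 12 of the B cell genes in each library of AKK, Model and Control; a point is 1 library and a line is the group median. The AKK and Model points of Cd79a and Blk lie above all Control points, Model spans the widest range, and the 3 medians of Blnk lie between 15.3 and 15.5 FPKM.

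The RefSeq promoter windows of build GRCm38.p6, from 250 bases before to 50 after the start of the gene in RefSeq, were looked at for 4 short motifs that factors of B cells and of inflammation bind. Of the 32 genes, 26 had a window there, and the shares below are over these 26 and over all 27025 genes with one. The octamer ATGCAAAT, bound by Oct factors with the coactivator Pou2af1, was found on either strand in 2 of the 26 (7.69%, against 1.97% of all genes), Vpreb3 and Blnk. The palindrome of Ebf1, the letters TCCC and GGGA with any 2 bases between them, was found in 1 (3.85%, against 1.06%), Cd22. The GAGGAA box of the PU.1 and Spib factors was found on either strand in 11 (42.3%, against 31.3%), Cd79a and Ltb among them. The kappaB letters, GGGA, any base and then TTTCC, were found on either strand in 1 (3.85%, against 0.466%), Ltb. No 2 matches overlapped in the stretches shown. A match is a description of letters and not a measured site. The stretches are shown with the matched letters in capitals for Cd79a, Cd22 and Vpreb3, which rose in both comparisons with Control. They are also shown for Ltb, which rose in Model against Control. Blnk is shown because it holds the same octamer as Vpreb3 and was not called in any comparison. The stretches lie outside annotated exons of their own gene, except that of Blnk, and exons of other genes were not checked. The stretches of Cd79a and Ltb lie just before the gene as the deposited table bounds it, while those of Vpreb3, Cd22 and Blnk lie inside those bounds, which reach further upstream than the RefSeq start. All are read 5′ to 3′ on the strand of the gene. Cd79a is at chr7:24897247-24897380 (+ strand), Cd22 at chr7:30879029-30879176 (- strand), Vpreb3 at chr10:75948050-75948299 (+ strand), Ltb at chr17:35194257-35194438 (+ strand) and Blnk at chr19:40994333-40994362 (- strand). Cd79a shows TTCCTC, the GAGGAA box on the other strand, Cd22 the palindrome, Vpreb3 and Blnk ATTTGCAT, the octamer on the other strand, and Ltb first GAGGAA and then GGAAAGTCCC, the kappaB letters on the other strand.
Cd79a: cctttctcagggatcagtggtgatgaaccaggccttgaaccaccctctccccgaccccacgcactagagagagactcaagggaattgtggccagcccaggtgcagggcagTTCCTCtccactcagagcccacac
Cd22: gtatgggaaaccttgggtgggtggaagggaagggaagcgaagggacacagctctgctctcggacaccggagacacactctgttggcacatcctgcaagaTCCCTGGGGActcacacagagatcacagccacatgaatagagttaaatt
Vpreb3: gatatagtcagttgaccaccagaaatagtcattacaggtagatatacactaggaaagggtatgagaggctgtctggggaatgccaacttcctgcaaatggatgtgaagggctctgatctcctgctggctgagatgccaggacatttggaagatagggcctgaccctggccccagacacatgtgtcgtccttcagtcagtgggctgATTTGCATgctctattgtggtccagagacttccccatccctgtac
Ltb: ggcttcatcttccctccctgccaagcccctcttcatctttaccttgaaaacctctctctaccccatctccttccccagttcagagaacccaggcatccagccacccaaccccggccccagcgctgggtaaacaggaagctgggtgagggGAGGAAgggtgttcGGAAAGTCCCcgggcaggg
Blnk: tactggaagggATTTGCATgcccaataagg

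The group of other surface proteins was taken to include the intracellular Fcrla. Of its 5 tested genes, 3 rose in Model against Control, Fcrla among them, and 1, Fcrla, in AKK against Control. The shares of all tested genes called higher were 12.4% and 3.72%. Ms4a1, which encodes CD20, a membrane protein of mature B cells, had 0.426, 1.08 and 4.26 FPKM in AKK, 0.264, 0.999 and 9.23 FPKM in Model, and 0.0472, 0.199 and 0.485 FPKM in Control. Above the Control range lay 5 of the 6 AKK libraries and 4 of the 6 Model libraries. The log2 change was 3.66 ± 0.87 in Model (edgeR adjusted p 0.00999) and 2.61 ± 0.83 in AKK (0.0674), both against Control. The call in Model ended with voom and library weights (adjusted p 0.16) and with limma on log2(FPKM + 1) (0.0777), and in AKK the gene was called without Model_1337, Model_1340 or Model_1341 (edgeR adjusted p 0.0436, 0.0494 and 0.0459). Its change in AKK against Model was -1.05 ± 0.78 (edgeR adjusted p 0.777), or -1.73 without AKK_1309 and -0.24 without Model_1340. Fcrla, an intracellular Fc receptor-like protein of B cells, rose in both groups, with 1.9, 2.39 and 6.5 FPKM in AKK, 0.493, 3.28 and 13.6 FPKM in Model, and 0.106, 0.316 and 0.734 FPKM in Control. All AKK libraries and 5 of the 6 Model libraries lay above the Control range. Its log2 change of 3.73 ± 0.68 was the largest of the 24 in Model against Control and its 3.02 ± 0.66 the largest in AKK against Control (edgeR adjusted p 0.0030 and 0.016). Both changes rest on low Control levels, with 12 to 80 counts of Fcrla per Control library. Cd37, a tetraspanin of B cells, rose in Model, to 1.15, 3.64 and 17.9 FPKM, against 1.02, 1.57 and 2.2 FPKM in Control (log2 change 2.08 ± 0.56, edgeR adjusted p 0.017). In AKK it had 2.71, 3.40 and 8.10 FPKM, all above the Control range, and was not called (log2 change 1.31 ± 0.54, edgeR adjusted p 0.143). The log2 change in Model against Control without Model_1340 was 2.83 for Ms4a1, 3.09 for Fcrla and 1.48 for Cd37, whose call ended there (edgeR adjusted p 0.0501). Without AKK_1309 the log2 change of Ms4a1 in AKK against Control was 1.93.

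Cd180, a toll-like receptor relative on B cells, and Cd40, the receptor through which T cells help B cells, were not called in any comparison. Cd180 had 0.624, 0.965 and 1.62 FPKM in AKK, 0.357, 1.40 and 3.07 FPKM in Model, and 0.273, 0.665 and 1.08 FPKM in Control. Cd40 had 0.971, 1.23 and 1.75 FPKM in AKK, 0.350, 1.52 and 2.97 FPKM in Model, and 0.514, 0.830 and 2.21 FPKM in Control. Both genes overlapped between all groups, with log2 changes of 1.12 ± 0.41 and 0.62 ± 0.41 in Model against Control (edgeR adjusted p 0.0643 and 0.290), and leaving out 1 library brought the adjusted p of Cd180 below the threshold in 2 cases, without Model_1341 (0.021) and without Model_1338 (0.0359), and that of Cd40 to no less than 0.0858. Fcer2a, which encodes the low-affinity IgE receptor CD23 of follicular B cells, and Fcmr, the receptor for IgM, were below the filter and very uneven. Fcer2a had 0.285, 0.614 and 2.99 FPKM in AKK, 0.0753, 0.572 and 5.21 FPKM in Model, and 0.0274, 0.0549 and 0.246 FPKM in Control, so every AKK library lay above the Control range. Fcmr had 0.216, 0.868 and 4.11 FPKM in AKK, 0, 0.914 and 9.46 FPKM in Model, and 0, 0.0639 and 0.577 FPKM in Control, and was listed at 0 in Model_1338 and Control_2285.

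The shares of all tested genes called higher were 12.4% in Model against Control and 3.72% in AKK against Control. Of the transcription regulators, the 3 tested all rose in Model against Control and 0 of 3 were called in AKK against Control. Pou2af1, the coactivator that works with Oct factors in B cells and plasma cells, was the most abundant of them, with 8.70, 11.9 and 18.3 FPKM in AKK, 2.07, 15.0 and 49.3 FPKM in Model, and 2.12, 4.0 and 6.07 FPKM in Control. Model_1341 had the lowest value of all 18 libraries, and the other 5 Model libraries lay above the Control range. Pou2af1 rose by 2.37 ± 0.51 in Model (edgeR adjusted p 0.0069), and its log2 change in AKK against Control was 1.61 ± 0.50 (0.0622). Spib, an ETS factor of B cells, M cells and plasmacytoid dendritic cells, had 3.11, 3.80 and 6.71 FPKM in AKK, 1.70, 4.64 and 16.6 FPKM in Model, and 1.45, 2.28 and 2.75 FPKM in Control. It rose by 1.61 ± 0.40 in Model (edgeR adjusted p 0.012) and had a log2 change of 0.83 ± 0.39 in AKK against Control (0.196). Ikzf3, the zinc finger protein Aiolos of lymphocytes, had 0.686, 1.02 and 1.68 FPKM in AKK, 0.207, 1.21 and 3.45 FPKM in Model, and 0.263, 0.346 and 0.568 FPKM in Control. It rose by 1.89 ± 0.47 in Model (edgeR adjusted p 0.012) and had a log2 change of 1.31 ± 0.46 in AKK against Control (0.0912). All AKK libraries lay above all Control libraries for the 3 genes, as they did for 7.61% of all tested genes. None of the 3 was called in AKK against Control. Pou2af1 was called there without Model_1337, Model_1340 or Model_1341 (edgeR adjusted p 0.0366, 0.043 and 0.0194) and Ikzf3 without Model_1341 (0.0379).

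The other 3 regulators were below the filter. Pax5, which commits cells to the B lineage, had 0.117, 0.302 and 1.35 FPKM in AKK, 0.0604, 0.376 and 3.16 FPKM in Model, and 0.00651, 0.0301 and 0.0694 FPKM in Control. Every AKK library and 5 of the 6 Model libraries lay above the Control range. Bach2, a repressor that keeps B cells from becoming plasma cells and is also made in T cells, had 0.319, 0.382 and 1.04 FPKM in AKK, 0.130, 0.427 and 1.15 FPKM in Model, and 0.113, 0.201 and 0.263 FPKM in Control. Ebf1, which acts with Pax5 and is also made in stromal cells and adipocytes, had 0.646, 0.811 and 0.984 FPKM in AKK, 0.379, 0.898 and 2.26 FPKM in Model, and 0.288, 0.414 and 0.810 FPKM in Control. A fit of all 36451 genes with no filter gave values for the 8 genes below it. It called 5 of these 8 higher in Model against Control, where 3.89% of all genes were called higher, and 0 in AKK against Control and in AKK against Model, where 0.804% and 0.00549% were. The 5 were Pax5 (log2 change 4.72 ± 0.95), Fcer2a (4.34 ± 0.97), Fcmr (4.27 ± 1.23), Cr2 (4.25 ± 1.03) and the adaptor Bank1 (2.90 ± 0.66), with edgeR adjusted p of 0.010 to 0.0464. The log2 changes of Ebf1 and Bach2 in that fit were 0.95 ± 0.32 and 1.42 ± 0.44 (edgeR adjusted p 0.0851 and 0.0641).

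Of the signaling enzymes and adaptors, 5 of 7 tested rose in Model against Control and 0 of 7 were called in AKK against Control. The shares of all tested genes called higher were 12.4% and 3.72%. Blk, a Src family kinase made mainly in B cells, had 0.639, 0.925 and 2.63 FPKM in AKK, 0.338, 0.825 and 7.89 FPKM in Model, and 0.0290, 0.199 and 0.287 FPKM in Control. Every AKK and every Model library lay above the Control range. Blk rose by 3.63 ± 0.78 in Model (edgeR adjusted p 0.0067), and by 2.74 without Model_1340, and its log2 change in AKK against Control was 2.55 ± 0.75 (0.0525). It was called in AKK without any of the Model libraries other than Model_1316 (edgeR adjusted p 0.0306 to 0.0468). Lyn, a Src family kinase also made in macrophages, neutrophils and mast cells, was more abundant, with 10.5, 13.1 and 16.1 FPKM in AKK, 7.90, 13.8 and 33.0 FPKM in Model, and 6.33, 8.44 and 13.6 FPKM in Control. Its ranges overlapped between all groups. Lyn rose by 0.82 ± 0.26 in Model (edgeR adjusted p 0.0353) and had a log2 change of 0.45 ± 0.26 in AKK against Control (0.282). Its call ended without any of Model_1316, Model_1337, Model_1340, Control_2285, Control_2286, Control_2287, Control_2288 and Control_2668, at edgeR adjusted p of 0.0549 to 0.0901, and with both Model_1337 and Model_1341 left out (log2 change 0.63, 0.0523). Lyn stood at 6.10 to 20.1 times the level of Blk in AKK, 2.69 to 28.2 times in Model and 25.9 to 347 times in Control, in FPKM. The 347 is from Control_2288, where Blk had 5 counts, and the next highest Control library was at 76.0 times.

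Syk, the kinase that docks on the phosphorylated receptor chains and is also made in myeloid cells and some epithelia, had 6.71, 10.6 and 14.7 FPKM in AKK, 8.04, 12 and 17.7 FPKM in Model, and 5.12, 6.17 and 8.08 FPKM in Control. It was the 1 gene of the 31 with no library at 0 whose Model range was no wider than its AKK range, 2.2 times from lowest to highest in both. Syk rose by 0.89 ± 0.20 in Model (edgeR adjusted p 0.0078) and had a log2 change of 0.65 ± 0.20 in AKK against Control (0.0598), where it was called without Model_1337, Model_1339 or AKK_1303 (0.0413, 0.0481 and 0.0348). Btk, the kinase lost in X-linked agammaglobulinemia in humans, had 1.58, 1.81 and 3.17 FPKM in AKK, 0.762, 2.04 and 6.32 FPKM in Model, and 0.674, 0.986 and 1.19 FPKM in Control. It rose by 1.50 ± 0.41 in Model (edgeR adjusted p 0.019, and 0.0535 without Model_1340). Rasgrp3, which couples the receptor to Ras, had 1.27, 1.72 and 2.79 FPKM in AKK, 0.698, 2.43 and 6.02 FPKM in Model, and 0.442, 0.582 and 1.08 FPKM in Control, and rose by 1.91 ± 0.42 in Model (edgeR adjusted p 0.0075). All AKK libraries lay above all Control libraries for Btk and Rasgrp3, with log2 changes of 0.97 ± 0.40 and 1.28 ± 0.42 in AKK against Control (edgeR adjusted p 0.143 and 0.0706). Rasgrp3 was called in AKK without Model_1337, Model_1340 or Model_1341 (edgeR adjusted p 0.0478, 0.043 and 0.0413).

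Blnk and Plcg2, the adaptor and the phospholipase that meet downstream of Syk, were not called in any comparison. Blnk had the highest median FPKM of the 32 genes in Control, and its 3 group medians nearly coincided. Its Control median of 15.3 FPKM stood beside 1.64 FPKM for Cd79a, and which cells made the Blnk RNA was not tested. It had 14.9, 15.3 and 16.8 FPKM in AKK, 8.83, 15.5 and 17.3 FPKM in Model, and 14.5, 15.3 and 20.7 FPKM in Control. Its log2 change was -0.20 ± 0.14 in Model against Control, with a 95% interval from -0.50 to 0.10 (edgeR adjusted p 0.329), and 0.01 ± 0.14 in AKK against Model, with an interval from -0.29 to 0.32 (0.986). Its lowest value was in Model_1337, where colon epithelium genes were also lowest. Among the Control libraries the order was opposite, with Blnk highest in Control_2289, whose colon epithelium sum of 6397 FPKM was the lowest there. A link between them was not tested. Plcg2 had 4.38, 4.71 and 7.17 FPKM in AKK, 1.97, 5.65 and 10.6 FPKM in Model, and 2.29, 3.49 and 3.70 FPKM in Control. Every AKK library lay above the Control range, with a log2 change of 0.52 ± 0.30 (edgeR adjusted p 0.298), and in Model against Control the change was 0.84 ± 0.30 (0.0605, and 0.015, 0.0266 and 0.0429, so called, without Model_1341, Model_1338 and Model_1339, and 0.042 without both Model_1337 and Model_1341). The adaptor Bank1, an ankyrin protein of B cells that was below the filter, had 0.446, 0.592 and 1.67 FPKM in AKK, 0.151, 0.585 and 4.22 FPKM in Model, and 0.0685, 0.171 and 0.246 FPKM in Control.

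**Figure D3:**
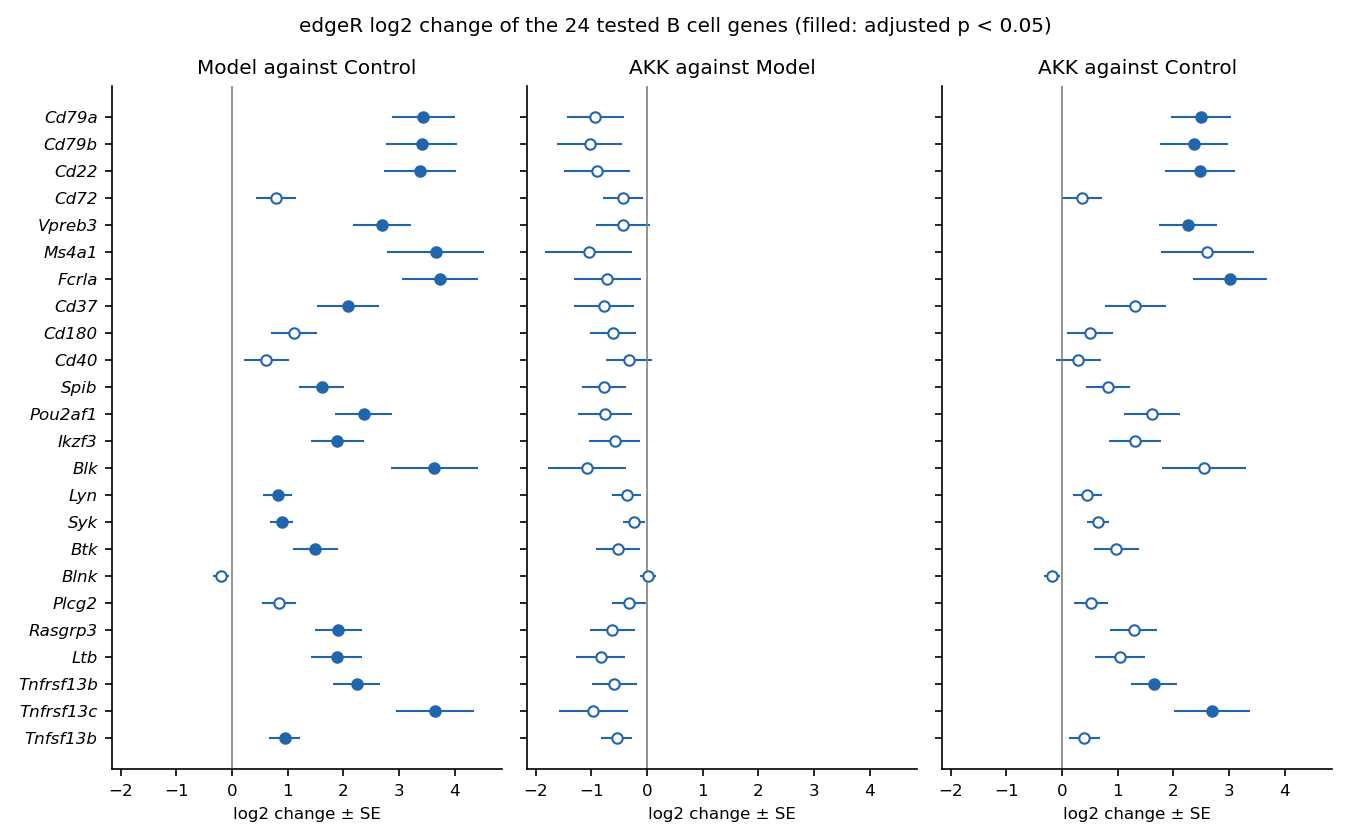
Log2 change ± SE from edgeR for the 24 tested B cell genes in 3 comparisons; filled points were called at an adjusted p under 0.05 and open points were not, with 19 filled in Model against Control, 0 in AKK against Model and 7 in AKK against Control. In both comparisons with Control the receptor chains, Cd22, Ms4a1, Fcrla, Blk and Tnfrsf13c lie farthest to the right and Blnk lies near 0 in all panels.

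Of the ligands and receptors of the tumor necrosis factor family, the 4 tested all rose in Model against Control. In AKK against Control 2 of 4 rose. The shares of all tested genes called higher were 12.4% in Model against Control and 3.72% in AKK against Control. Tnfrsf13c, the BAFF receptor on which mature B cells depend for survival, had 0.617, 1.19 and 3.24 FPKM in AKK, 0.422, 1.77 and 7.84 FPKM in Model, and 0.0812, 0.133 and 0.526 FPKM in Control. It rose by 3.65 ± 0.70 in Model (edgeR adjusted p 0.0038, log2 change 2.96 without Model_1340) and by 2.69 ± 0.68 in AKK (0.029). Tnfrsf13b, which encodes TACI, a receptor for BAFF and APRIL on B cells and plasma cells, had 4.03, 4.43 and 7.66 FPKM in AKK, 1.01, 7.16 and 15.3 FPKM in Model, and 0.919, 1.56 and 1.66 FPKM in Control. It rose by 2.24 ± 0.42 in Model (edgeR adjusted p 0.0034) and by 1.65 ± 0.41 in AKK (0.028). For both receptors all AKK libraries, and for each 5 of the 6 Model libraries, lay above the Control range. Tnfrsf13b stood at 2.37 to 7.49 times the level of Tnfrsf13c in AKK, 1.91 to 7.79 times in Model and 2.97 to 19.3 times in Control, in FPKM.

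The ligands had smaller log2 changes than these receptors, a difference that was not tested. Tnfsf13b, which encodes BAFF itself and is made by myeloid and stromal cells, had 1.69, 2.19 and 3.01 FPKM in AKK, 1.23, 2.61 and 6.01 FPKM in Model, and 1.16, 1.58 and 2.04 FPKM in Control. It rose by 0.94 ± 0.28 in Model (edgeR adjusted p 0.0272), and its log2 change in AKK against Control was 0.40 ± 0.28 (0.385). The call in Model ended without any of Model_1337, Model_1340, Control_2285, Control_2286 and Control_2287, at edgeR adjusted p of 0.0516 to 0.0701. Ltb, the membrane-bound lymphotoxin through which lymphocytes organise follicle stroma, had 3.27, 4.56 and 7.68 FPKM in AKK, 2.05, 5.06 and 21.1 FPKM in Model, and 1.44, 2.14 and 2.84 FPKM in Control. It rose by 1.88 ± 0.46 in Model (edgeR adjusted p 0.011), and in AKK, where all libraries lay above the Control range, its log2 change was 1.05 ± 0.45 (0.155). Lta, the chain that joins Ltb in the lymphotoxin trimer, was below the filter, with 0.289, 0.517 and 0.801 FPKM in AKK, 0.163, 0.429 and 1.43 FPKM in Model, and 0.109, 0.278 and 0.339 FPKM in Control.

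Fold changes and separation of the libraries gave different orders of the 2 comparisons with Control. The Model and Control ranges did not overlap for 2 of the 24 genes, Cd79a and Blk, where 1.53% of all tested genes were higher without overlap. The AKK and Control ranges did not overlap for 16, where 7.61% of all tested genes were higher without overlap. Besides the 7 called, these were Cd37, Spib, Pou2af1, Ikzf3, Blk, Btk, Plcg2, Rasgrp3 and Ltb. Of these 16, Cd22, Vpreb3, Fcrla, Ikzf3, Blk and Tnfrsf13c passed the filter only through AKK and Model libraries. With Model_1341 left out, a choice made after the values were seen, 9 genes did not overlap between Model and Control, against 7.5% of all tested genes. The count called in AKK against Control moved with the libraries in the fit. With AKK and Control fitted alone 18 of the 24 were called higher, while with Model and Control fitted alone 13 were in that comparison, the calls of Cd37, Spib, Ikzf3, Lyn, Btk and Tnfsf13b ending (edgeR adjusted p 0.0512 to 0.104). In AKK against Control, with Model_1337 and Model_1341 left out 13 were called, while without the 4 libraries above 70000000 counts 0 were, of 56 genes called in all. Those 4 include 3 of the 6 AKK libraries, so that fit also had fewer libraries. Leaving out 1 library gave between 2 and 12 called. The 2 were Cd79a and Fcrla, which were called whichever 1 library was left out, and the count was 2 without Control_2286 or Control_2288, 3 without AKK_1306 or AKK_1309, 11 without Model_1340 and 12 without Model_1337 or Model_1341. Calls of the other 5 ended without 2 libraries for Vpreb3, 4 for Tnfrsf13c, 5 for Tnfrsf13b, 7 for Cd22 and 8 for Cd79b, at edgeR adjusted p of 0.0504 to 0.0815, with Control_2286 and Control_2288 among the libraries for all 5.

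In AKK against Model the log2 change was below 0 for 23 of the 24 genes, where 55.2% of all tested genes were below 0. With voom and library weights it was below 0 for 7 of the 24, and in the other 29 alternatives for 22 to 24. The groups overlapped for all 24, where 0.735% of all tested genes were higher and 0.0643% lower without overlap. The changes ran from -1.08 ± 0.70 for Blk to 0.01 ± 0.14 for Blnk, at edgeR adjusted p of 0.727 to 0.986. These values do not show that the groups were alike, since the intervals were wide. The 95% interval of Cd79a ran from -2.01 to 0.14, that of Cd22 from -2.15 to 0.35 and that of Spib, which had the lowest adjusted p, from -1.60 to 0.05. Without Model_1340 the fold change of 9 genes moved by more than 1.5 times, to log2 values of -0.26 for Cd79a, -0.24 for Cd79b, -0.25 for Cd22, -0.24 for Ms4a1, -0.085 for Fcrla, -0.18 for Cd37, -0.21 for Blk, -0.28 for Tnfrsf13c and 0.32 for Vpreb3, which was at -0.43 with it. Without AKK_1309 that of Ms4a1 moved as far, to -1.73, and no other library left out moved a change by that much.

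The mature B cell surface genes made up an uneven part of the B cell signal from library to library. The sum of Ms4a1, Fcer2a, Cr2 and Fcmr, a set chosen after the values were seen and given with no test, came to 8.06, 19.6 and 31.8% of the sum of Cd79a and Cd79b (lowest, median and highest) in AKK, 5.11, 15.1 and 35.0% in Model and 4.0, 11.6 and 29.5% in Control. The ranges of the 3 groups overlapped. The highest library of each group, AKK_1309, Model_1337 and Control_2287, was near or above 30%, although their Cd79a and Cd79b sums were 42.4, 62.4 and 5.27 FPKM. Model_1340, with the largest Cd79a and Cd79b sum of 114 FPKM, was at 25.1%. Model_1338, with a sum of 9.49 FPKM, was at 5.11%, so a library with a larger sum than Control_2287 had a lower share.

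**Figure D4:**
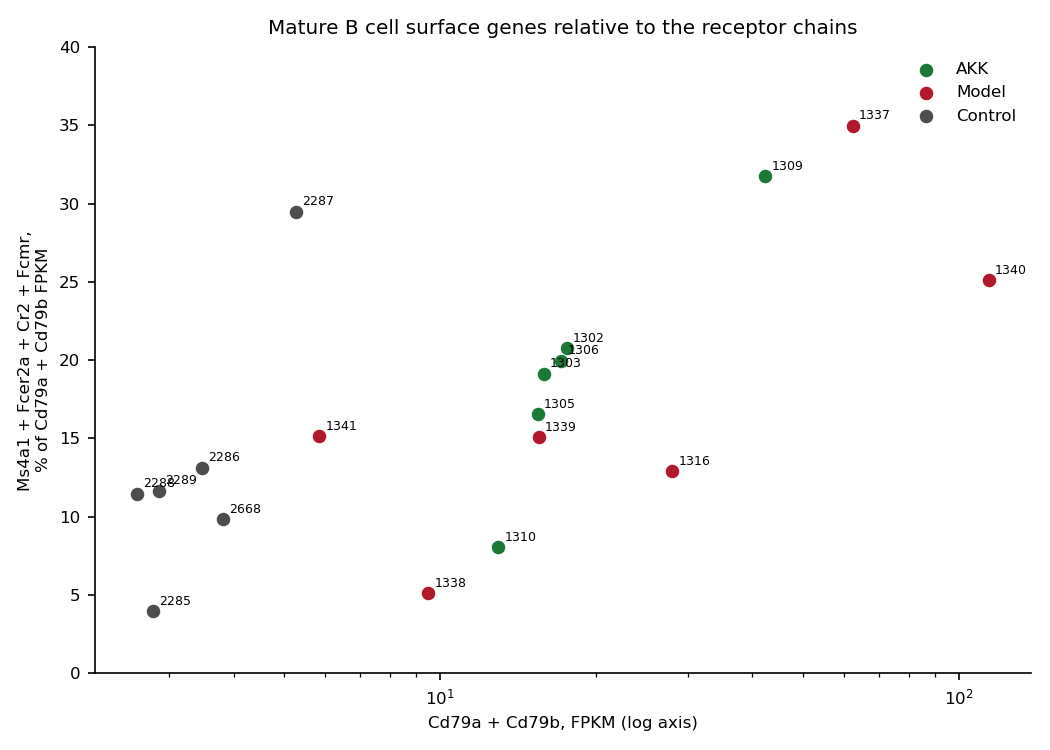
Summed FPKM of Ms4a1, Fcer2a, Cr2 and Fcmr as a percentage of the summed FPKM of Cd79a and Cd79b (vertical axis) against that Cd79 sum (horizontal log axis), 1 point for each library, numbered as in the labels. AKK_1309 at 31.8%, Model_1337 at 35.0% and Control_2287 at 29.5% stand highest in their groups, at very different Cd79 sums.

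Other genes of B cells and of their receptor pathway gave a mixed picture. Of all tested genes, 12.4% were called higher and 7.67% lower in Model against Control, and 3.72% and 2.48% in AKK against Control. Of 48 tested genes of the receptor pathway outside the 32, 10 were called higher and 2 lower in Model against Control, and 3 higher and 1 lower in AKK against Control. Their median log2 changes were 0.15 and 0.04. The inhibitory Fc receptor gene Fcgr2b, which B cells share with myeloid cells, was at 12.8 ± 1.44 FPKM in AKK, 17.1 ± 10.8 FPKM in Model and 4.93 ± 1.34 FPKM in Control (mean ± SD of 6 libraries), and rose by 1.70 ± 0.35 in Model and by 1.27 ± 0.34 in AKK (edgeR adjusted p 0.0050 and 0.036). Its call in AKK ended when any of 10 libraries was left out, all AKK libraries but AKK_1303 and all Control libraries but Control_2668 (0.0539 to 0.0738). Chuk and Rac1, kinase and GTPase genes used by most cells and named after their values were seen because the count is small, were the 2 that fell in Model, by 0.35 ± 0.10 and 0.30 ± 0.09, and Rac1 was the 1 that fell in AKK, by 0.34 ± 0.09 (log2 ± SE against Control, edgeR adjusted p 0.020, 0.027 and 0.032). The call of Rac1 ended in Model without any of Model_1316, Control_2286, Control_2288 and Control_2289 (0.0508 to 0.0586), and in AKK without any of 8 libraries, all AKK libraries but AKK_1303 and the same 3 Control libraries (0.0606 to 0.0755).

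Of 21 tested genes of B cell surface and differentiation outside the 32, 10 were called higher and 2 lower in Model against Control, and 2 higher and 1 lower in AKK against Control. The median log2 changes were 1.15 and 0.65. The shares of all tested genes called were 12.4% higher and 7.67% lower in Model, and 3.72% and 2.48% in AKK, each against Control. Ccr7, the receptor that leads lymphocytes to lymphoid zones, had a mean ± SD of 3.76 ± 4.57 FPKM over the 6 Model libraries, against 0.442 ± 0.277 FPKM over the 6 Control libraries, and rose by 2.98 ± 0.78 on the log2 scale (edgeR adjusted p 0.015), or 2.26 without Model_1337. Irf4, a factor of activated B cells and plasma cells, rose in Model by 2.09 ± 0.46 and in AKK by 1.79 ± 0.45 (log2 ± SE against Control, edgeR adjusted p 0.0071 and 0.030). Its call in AKK ended without any of AKK_1306, AKK_1309, AKK_1310, Control_2286, Control_2288 and Control_2289 (0.0527 to 0.0729). Of 8 tested genes of the germinal centre list, 3 were called higher and 2 lower in Model against Control. In AKK against Control 2 were called higher and 2 lower. Cd38 was among the lower genes in both, and the medians were 0.32 and 0.05. Ighm, the heavy chain of IgM, which every naive B cell also makes, was at 66.3 ± 37.3 FPKM in AKK, 237.8 ± 258.6 FPKM in Model and 7.94 ± 1.89 FPKM in Control (mean ± SD of 6 libraries), and rose by 4.80 ± 0.68 in Model and by 2.96 ± 0.63 in AKK (edgeR adjusted p 0.00086 and 0.014). Without Model_1337 its change in Model was 4.12. Cd38 is made by many cell types of the gut, and its change is not read as one of germinal centre B cells. It fell by 1.67 ± 0.35 and by 1.42 ± 0.35 (log2 ± SE in Model and in AKK, each against Control, edgeR adjusted p 0.0060 and 0.027). Its call in AKK ended without any of AKK_1302, AKK_1305, AKK_1306, AKK_1310, Control_2286, Control_2288 and Control_2289 (0.053 to 0.0721). In AKK against Model 0 genes of these 3 lists were called, where 0.0214% of all tested genes were.

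Genes of the tissue around B cells rose in part. The shares of all tested genes called higher were 12.4% in Model against Control and 3.72% in AKK against Control. Of 14 tested genes of follicle stroma and lymphoid tissue organisation, 6 rose in Model against Control and 0 were called in AKK against Control, with medians of 0.85 and 0.57. Their summed level ran from 214 to 315 FPKM in AKK, from 143 to 602 FPKM in Model and from 127 to 167 FPKM in Control, with the highest sum in Model_1337 and the next in Model_1340, the libraries with the most B cell RNA. Madcam1, the vessel ligand of gut homing lymphocytes, rose by 1.86 ± 0.47 and Tnfsf11, the RANK ligand, by 1.97 ± 0.60 (log2 ± SE in Model against Control, edgeR adjusted p 0.014 and 0.029). The call of Tnfsf11 ended without any of Model_1337, Model_1340, Control_2285, Control_2286, Control_2287 and Control_2288 (0.0501 to 0.0807). Of 6 tested M cell genes, Ccl20 and Anxa5 rose in Model against Control, by 2.08 ± 0.58 and 0.43 ± 0.11 (log2 ± SE, edgeR adjusted p 0.020 and 0.014), and 0 were called in AKK against Control. Without Model_1340 the change of Ccl20 was 1.12 and its call ended (0.0703). The M cell list had medians of 0.39 and 0.23. Of 13 tested plasma cell genes 8 rose in Model against Control and 5 in AKK against Control, with medians of 0.58 and 0.46. Their sum ran from 919 to 1621 FPKM in AKK, from 385 to 2601 FPKM in Model and from 393 to 508 FPKM in Control. Derl3, a protein of the secretory pathway, rose by 2.88 ± 0.45 in Model and by 2.31 ± 0.44 in AKK (log2 ± SE against Control, edgeR adjusted p 0.0013 and 0.0079).

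Genes of other immune cells rose in part. The counts below stand beside 12.4% of all tested genes called higher in Model against Control and 3.72% in AKK against Control. Of 12 tested T cell genes, 6 rose in Model against Control and 1, Cd4, in AKK against Control, with medians of 0.82 and 0.51. Cd4, the coreceptor of helper T cells, was at 5.22 ± 1.33 FPKM in AKK, 6.11 ± 3.94 FPKM in Model and 1.37 ± 0.433 FPKM in Control (mean ± SD of 6 libraries, edgeR adjusted p 0.018 in AKK and 0.0045 in Model, each against Control). Of 12 macrophage and monocyte genes 6 rose in Model against Control and 0 were called in AKK against Control, with medians of 0.90 and 0.66, and their sum ran from 487 to 749 FPKM in AKK, from 146 to 1335 FPKM in Model and from 179 to 541 FPKM in Control. In Model against Control, 1 of 5 neutrophil genes, 2 of 3 mast cell genes and 0 of 3 dendritic cell genes were called higher, and 0 genes of these lists were called in AKK against Control. The neutrophil gene was S100a9, with a log2 change of 4.01 ± 1.37 (edgeR adjusted p 0.0474), which was 1.16 without Model_1337 (0.432) and 5.4 without Control_2289 (0.0251), and its call ended without any of 12 other libraries (0.0508 to 0.0976). The mast cell protease genes Mcpt1 and Mcpt2 rose by 3.53 ± 0.91 and 3.48 ± 0.83 (log2 ± SE, edgeR adjusted p 0.015 and 0.010), or by 4.85 and 4.59 without Control_2286, and Mcpt1 by 2.90 without Model_1340. Of the structural lists, 6 of 8 stromal and endothelial genes rose in Model against Control and 5 in AKK against Control, 4 of 9 smooth muscle genes rose in Model against Control and 0 were called in AKK against Control, and 0 of 11 colon epithelium genes and 0 of 1 squamous gene were called in either. In AKK against Model 0 genes of any of these lists were called, where 0.0214% of all tested genes were. Lyn, Syk, Btk, Tnfsf13b, Cd40 and Plcg2 are made by myeloid cells too, and the part of macrophage RNA in their levels was not tested.

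**Figure D5:**
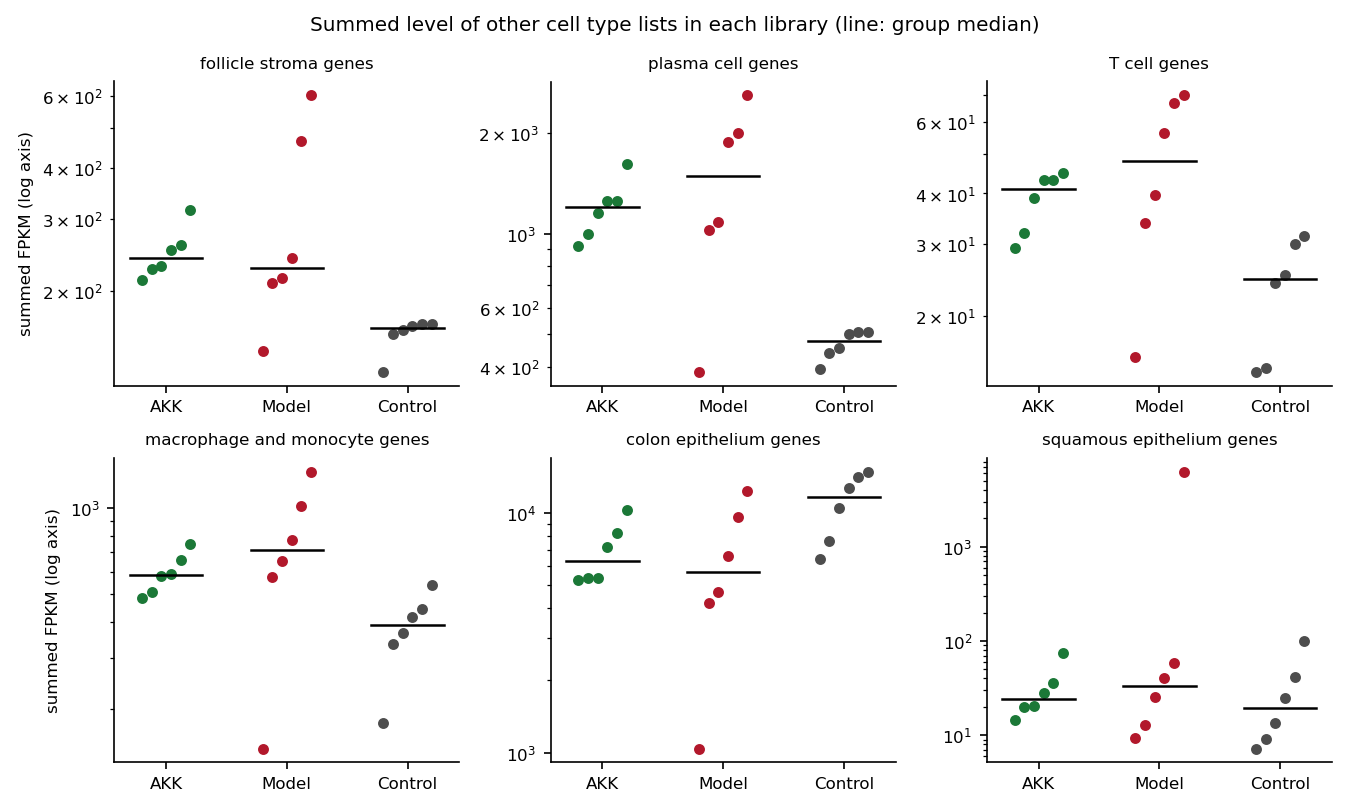
Summed FPKM (log axis) of 6 marker lists in each library of AKK, Model and Control; a point is 1 library and a line is the group median. Follicle stroma, plasma cell, T cell and macrophage sums spread most in Model, colon epithelium is lowest and squamous epithelium highest in Model_1337, and the AKK plasma cell sums, 919 to 1621 FPKM, all lie above the Control sums, 393 to 508 FPKM.

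Of the 19 genes called in Model against Control, 7 were called under all 30 other settings tried, namely Cd79a, Cd79b, Cd22, Vpreb3, Fcrla, Tnfrsf13b and Tnfrsf13c, and 15 whichever 1 library was left out, the exceptions being Cd37, Lyn, Btk and Tnfsf13b. These 7 are the same genes that were called in AKK against Control. Exons of 7 of the 32 genes, Cd22, Cd72, Cd37, Cd180, Pax5, Bach2 and Lyn, overlap exons of another gene on the opposite strand in the GENCODE vM21 annotation, and since no source used here gives the strand setting of the counting, their values are less certain. The other 25 have no such overlap.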

How the data were processed

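Polyadenylated colon RNA was made into dUTP strand-marked libraries and sequenced as read pairs, per the labels' protocols. The submitters' processing notes name the mm10 build, StringTie 2.1.6, HISAT2 2.2.1 and cutadapt 1.9, as well as edgeR and DESeq2 without version or role. No source used here gives the annotation or the strand setting of the counting. Per the file headers, the table the authors deposited holds an FPKM and an estimated count for each gene and library, and the counts are whole numbers, so no rounding was needed. Multiples of 4 were in excess: a count of 4 was 2.36 times, of 8 1.74 times and of 12 1.36 times as common as the counts next to it. A fragment thus appeared to give about 4 counts, and dividing by 4 was tried.

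The 32 genes and the 15 other lists were chosen with earlier results of these data known. Genes with at least 1 FPKM in at least 6 of 18 libraries, 14007 in all, were tested on the counts with edgeR's quasi-likelihood test (edgeR 4.0.16, R 4.3.3), with TMM scaling and 1 term for each of 3 groups over all 18 libraries. P-values were adjusted by Benjamini and Hochberg over all genes tested, and the threshold was 0.05. Standard errors come from the F statistic of each test. Levels are FPKM, given as lowest, median and highest library or as mean ± SD. Fits of edgeR, DESeq2 and limma were run on counts simulated with the same spread in all groups. That run cannot show how they behave with the wider spread of Model, and its outcome is not used here. Alternatives were other scaling and filters, DESeq2 1.42.0, limma 3.58.1 on log2(FPKM + 1) and log2(FPKM + 0.1), voom with library weights, both compared groups alone, each library left out, Model_1337 and Model_1341 left out, and, added after the data were seen, the 4 libraries above 70000000 counts left out and Model_1341 left out of the count of genes without overlap. No label ties each library to a mouse of its own, so the spread behind each p-value is that of libraries and may be technical. No 2 libraries held identical values. The labels give no sequencing batch. All 32 genes are named. Of each other list and comparison at most the 2 called genes with the largest change were eligible to be named. Some genes that this rule names are given as counts only, and 1 further gene is not reported here. Promoter windows are from RefSeq (GRCm38.p6), and exons from GENCODE vM21. Gene coordinates are those of the deposited table. Figures were drawn with matplotlib 3.10.9 in Python 3.11.15.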

Additional observations from a re-analysis of the deposited data

Results flagged for a closer look

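In 18 of the 96 groups of 6 libraries (32 genes in 3 groups), 1 library stood apart: its gap to the nearest other library took more of the group's range, on the log2(FPKM + 1) scale, than Dixon's 95% critical value for 6 samples. Chance flags about 1 in 20 such groups, and genes that share a library are not independent. AKK_1309 was the highest AKK library in 12 of them. It had 22.5 FPKM of Cd79a, 19.9 of Cd79b, 4.26 of Ms4a1, 2.99 of Fcer2a, 8.10 of Cd37, 1.355 of Pax5, 1.045 of Bach2, 6.71 of Spib, 2.63 of Blk, 7.175 of Plcg2, 1.67 of Bank1 and 7.66 of Tnfrsf13b. Its total of 80243356 counts was among the 3 highest of the AKK group. AKK_1306 and AKK_1310, with 82589848 and 78650025 counts, were the highest AKK library for 0 and 1 of the 32 genes. AKK_1310 was the lowest for 16. The plasma cell and follicle stroma sums of AKK_1309 were the highest of the AKK group, at 1621 and 315 FPKM.

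Control_2287 was the highest Control library for 3 genes of mature B cells, with 0.247 FPKM of Cr2, 0.246 FPKM of Fcer2a and 0.577 FPKM of Fcmr. Control_2285 was the lowest for 2, with 2.29 FPKM of Plcg2 and 0.919 FPKM of Tnfrsf13b. Model_1337 was the lowest Model library for Blnk, with 8.83 FPKM.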

How the results depend on the processing

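No paired analysis was possible because no library number occurs in more than 1 group. Genes called in Model against Control numbered 2811, and 1843 with limma on log2(FPKM + 1), 1512 with voom and library weights, 958 with both groups alone and 1743 to 3409 with 1 library left out. B cell genes called higher there numbered 19, and 12 with limma on log2(FPKM + 1) and 7 with voom. Genes called in AKK against Model numbered 3, and 12 with DESeq2, 12 with voom, 1 without Model_1337 and Model_1341 and 0 without the libraries above 70000000 counts. Genes called in AKK against Control numbered 869, and 378 with no filter, 1841 with DESeq2, 3248 with voom, 2722 with both groups alone, 2563 without Model_1337 and Model_1341, 56 without the libraries above 70000000 counts and 288 to 2132 with 1 library left out. B cell genes called higher there numbered 7, and 3 with no filter, 13 with DESeq2, 3 with limma on log2(FPKM + 1), 16 with voom, 18 with both groups alone, 13 without Model_1337 and Model_1341, 0 without the libraries above 70000000 counts and 2 to 12 with 1 library left out. In every alternative 0 B cell genes were called lower in any comparison, and 0 higher in AKK against Model. The cause of these shifts was not tested, except that fits without libraries had fewer samples.

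No log2 change against Control reversed in any of 30 alternatives, and 23 of 720 values in AKK against Model did, all uncalled. With voom and library weights the log2 change in AKK against Model was 0.00137 for Cd79b, 0.097 for Cd22, 0.371 for Vpreb3, 0.302 for Ms4a1, 0.371 for Fcrla, 0.368 for Cd37, 0.206 for Cd40, 0.227 for Pou2af1, 0.173 for Ikzf3, 0.396 for Blk, 0.0789 for Lyn, 0.0639 for Syk, 0.263 for Btk, -0.0907 for Blnk, 0.163 for Plcg2, 0.0949 for Rasgrp3, 0.024 for Ltb and 0.0166 for Tnfrsf13c. It was 0.0898 for Vpreb3 with limma on log2(FPKM + 0.1) and -0.0895 for Blnk without Model_1337 and Model_1341. With 1 library left out it ran from -0.624 to 0.316 for Vpreb3, above 0 without Model_1340, and from -0.108 to 0.0624 for Blnk, below 0 without Model_1337 and, at -0.00954, without AKK_1309. Low counts in Control limit the genes below the filter, and tested genes with large changes as well. Counts per Control library ran from 5 to 49 for Blk, 10 to 42 for Vpreb3 and 11 to 68 for Tnfrsf13c. They ran from 12 to 80 for Fcrla and 20 to 186 for Ms4a1.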
